A study of Mus musculus with 8 samples.

Results

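The 10 genes described here serve glucose breakdown and the response to low oxygen: Slc2a1, Hk2, Pfkp, Pgk1, Pkm, Ldha, Pdk1, Hif1a, Vegfa and Car9. They were taken by symbol from a deposited table of 48587 symbols, all 10 were found, and all 10 were among the 16194 genes with enough reads to test. RNA of the whole aortic tree of mice was sequenced in 8 libraries, 2 in each of 4 groups. WT vehicle and WT VitD libraries came from littermate control mice given vehicle or vitamin D (VitD). Tet2 knockout vehicle and Tet2 knockout VitD libraries (Tet2KO) came from mice labelled as lacking Tet2, which encodes a DNA demethylating enzyme, in vascular smooth muscle cells only. The sources used here do not give the promoter that drove the deletion, the dose and duration of VitD, or the age and number of mice behind a library. Whether 2 libraries of a group stand for 2 animals is not stated, and the spread that the p-values are based on may be only technical.

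Glycolysis splits glucose into pyruvate in the cytosol. GLUT1 (Slc2a1) carries glucose into the cell, hexokinase and phosphofructokinase commit it to the pathway, and lactate dehydrogenase turns pyruvate into lactate when it does not enter mitochondria. HIF-1 is a transcription factor whose alpha subunit (Hif1a) is degraded in the presence of oxygen. When oxygen falls, the subunit is stabilised and the factor raises glycolytic genes, Pdk1, Vegfa and Car9 by binding a short core sequence near them, the hypoxia response element. HIF-1 alpha is controlled mainly at the protein level, which was not measured here.

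The RefSeq promoter windows of the 5 genes that passed the test under VitD in WT are shown because 4 of the 5 hold letters of that core. Each run is the 250 bases before the transcription start, 5′ to 3′ on the gene's strand, from RefSeq with build GRCm38.p6. Capitals mark ACGTG or GCGTG on either strand (CACGT and CACGC when read from the other strand).
Car9, chr4:43506776-43507025, plus strand: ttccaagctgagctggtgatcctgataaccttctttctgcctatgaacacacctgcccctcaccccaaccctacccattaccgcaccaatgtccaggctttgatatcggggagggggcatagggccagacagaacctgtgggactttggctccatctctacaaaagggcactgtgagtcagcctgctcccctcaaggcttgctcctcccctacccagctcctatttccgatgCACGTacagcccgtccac
Pfkp, chr13:6648772-6649021, minus strand: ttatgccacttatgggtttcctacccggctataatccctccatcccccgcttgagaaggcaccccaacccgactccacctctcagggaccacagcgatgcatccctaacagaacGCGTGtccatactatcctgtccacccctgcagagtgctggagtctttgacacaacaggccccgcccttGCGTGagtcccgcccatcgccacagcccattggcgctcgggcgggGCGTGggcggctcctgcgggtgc
Vegfa, chr17:46032378-46032627, minus strand: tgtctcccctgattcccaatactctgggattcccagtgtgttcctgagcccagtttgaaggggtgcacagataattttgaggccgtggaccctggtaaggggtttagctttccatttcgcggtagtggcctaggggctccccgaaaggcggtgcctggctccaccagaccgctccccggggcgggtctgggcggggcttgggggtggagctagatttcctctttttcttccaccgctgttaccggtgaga
Pgk1, chrX:106186850-106187099, plus strand: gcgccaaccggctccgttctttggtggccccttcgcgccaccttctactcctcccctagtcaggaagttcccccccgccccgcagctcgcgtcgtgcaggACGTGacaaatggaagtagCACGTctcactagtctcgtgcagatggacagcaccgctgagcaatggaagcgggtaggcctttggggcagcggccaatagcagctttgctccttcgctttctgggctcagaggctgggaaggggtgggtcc
Hif1a, chr12:73907617-73907866, plus strand: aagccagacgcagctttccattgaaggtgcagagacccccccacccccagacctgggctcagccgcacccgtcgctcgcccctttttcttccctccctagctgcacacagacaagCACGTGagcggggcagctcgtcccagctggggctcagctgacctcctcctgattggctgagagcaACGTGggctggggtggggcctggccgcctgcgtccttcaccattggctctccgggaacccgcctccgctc

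Car9 held 1 match, ACGTG on the other strand, whose first letter lay 18 bases before the start. Pfkp held GCGTG at 136, 68 and 23 bases before the start and no ACGTG. Pgk1 held ACGTG at 150 and 131 bases before the start, on opposite strands. Hif1a held it at 135 and 134 bases, where overlapping matches on the 2 strands spell CACGTG, and again at 70 bases. The Vegfa window had no match, which says only that these letters are not in this window; a second RefSeq start of Vegfa, inside the gene, had 1 match to each. Over windows of 300 bases, 250 before and 50 after the start, all 10 genes matched the RefSeq table with 14 windows. ACGTG was in a window of 8 of the 10 genes (8 of 14 windows, against 19.6% of all 32851 windows of that length). GCGTG was in 5 of the 10 (6 of 14 windows, against 32.4%), and either was in all 10 (11 of 14, against 43.8%). The core letters were thus found before genes that were higher under VitD (Pgk1, Hif1a) and before genes that were lower (Car9, Pfkp). A match describes the sequence and is not a binding site.

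Each library held 15679274 to 22332149 counts. The libraries labelled Tet2 knockout did not have less Tet2 RNA, at 42.0 and 35.2 CPM (counts scaled to library size, TMM-normalised) under vehicle against 35.8 and 32.2 CPM in WT. Under VitD it was at 26.6 and 37.6 CPM in them, against 18.3 and 20.0 CPM in WT (log2 0.74, adjusted p = 0.457), and in WT Tet2 fell under VitD (log2 -0.83, adjusted p = 0.0305). A genotype below is the genotype as labelled. The defining markers of the tissue, 8 genes of contractile smooth muscle, were read in every library with a summed level of 15169 to 30000 CPM. The numbers in the library names fell in a lower and a higher range, which the labels do not call batches. WT VitD 1, WT VitD 2 and Tet2KO VitD 1 had high numbers, and the 5 others, all 4 vehicle libraries and Tet2KO VitD 2, had low ones. In WT the number range and VitD cannot be told apart. On the main axis of variation over all genes (61.6% of the variance) the high-numbered libraries stood at 50.5 to 69.5, the vehicle libraries at -34.99 to -48.23 and Tet2KO VitD 2 at -5.27. Symbols starting with Rpl or Rps and a digit, the naming of most ribosomal protein genes, made up 4.45% to 4.998% of the reads of high-numbered libraries. In the others they made up 1.96% to 2.39%. The part of this difference in the results below was not tested.

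Under VitD in WT, Pgk1 and Hif1a rose and Pfkp, Vegfa and Car9 fell. Car9 moved most, at 6.66-fold lower. The genes of the glycolytic chain did not move one way, with Pgk1 1.90-fold higher and Pfkp 2.15-fold lower. Hif1a RNA was higher, and RNA of genes that HIF-1 raises went both ways, with Pgk1 higher and Vegfa and Car9 lower. Of the 10 genes, 5 passed the test (2 higher, 3 lower; edgeR quasi-likelihood test, Benjamini-Hochberg adjusted p under 0.05). Over all genes 20.1% passed, 10.6% higher and 9.47% lower. In the libraries labelled Tet2 knockout 0 of the 10 passed, against 0.198% of all genes. In bulk tissue a change in the cells that make an RNA and a change in RNA per cell cannot be told apart.

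**Figure D1:**
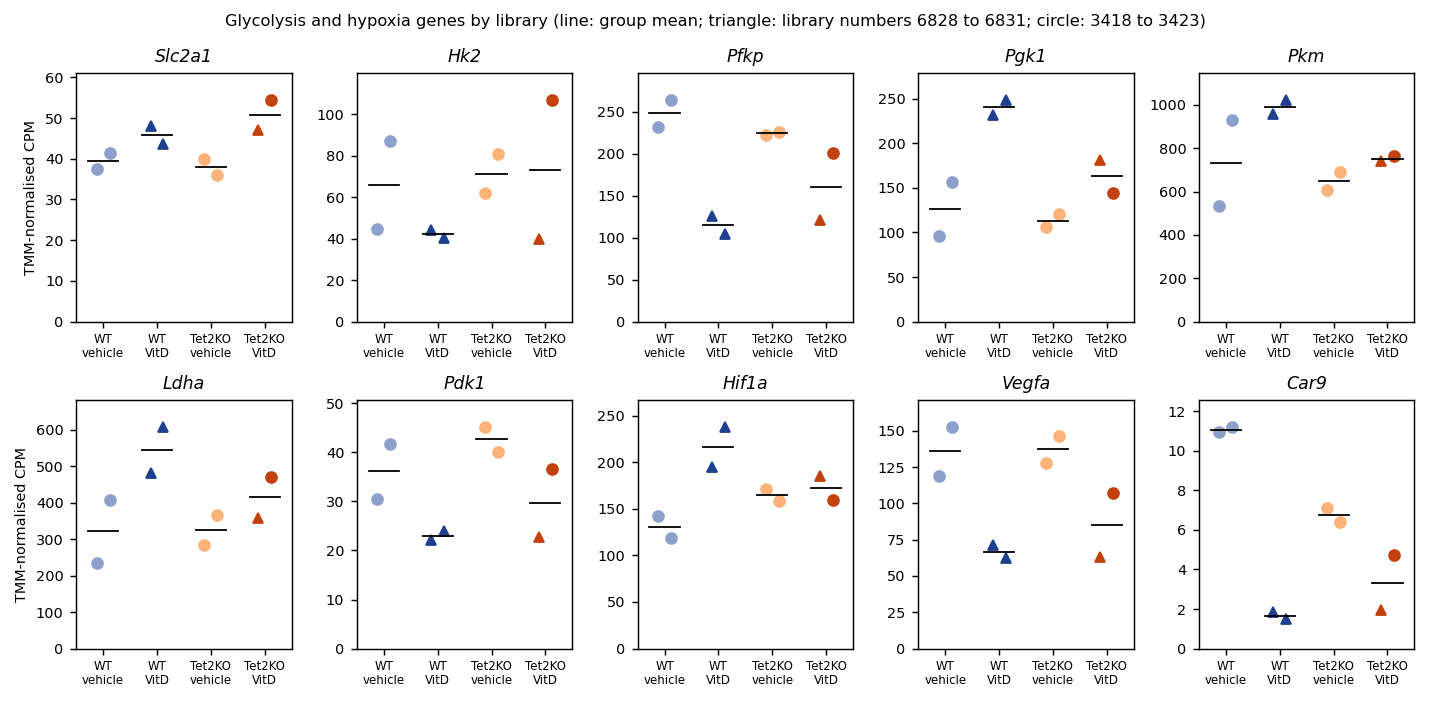
TMM-normalised CPM (y axis) of each gene in the 8 libraries by group, with a line at the group mean of 2 libraries. Triangles are the 3 libraries of the higher number range, circles the 5 of the lower. Pfkp, Vegfa and Car9 triangles all lie below every circle, and Pgk1 and Hif1a triangles above every circle.

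Uptake of glucose was represented by Slc2a1 (chromosome 4, 119108711 to 119137983, plus strand, mm10), which encodes GLUT1, the transporter of basal uptake. Slc2a1 was at 37.5 and 41.4 CPM in WT vehicle libraries and at 47.9 and 43.6 CPM in WT VitD libraries. In the libraries labelled Tet2 knockout it was at 39.9 and 35.9 CPM with vehicle and 47.1 and 54.5 CPM with VitD. Its VitD libraries were above the vehicle libraries in both genotypes, with a narrow gap. In WT the log2 fold change was 0.21 (SE 0.169, adjusted p = 0.378). In Tet2 knockout it was 0.42 (SE 0.169, adjusted p = 0.339), and neither passed the test.

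Hk2 (chromosome 6, 82725025 to 82774454, minus strand) encodes the inducible hexokinase that traps glucose as its phosphate. Relative to its mean it had the widest spread of the 10 genes, in the 2 Tet2KO VitD libraries. Hk2 read 44.7 and 87.2 CPM with vehicle in WT and 44.3 and 40.4 CPM with VitD, and the nearest pair of these libraries differed by less than 1 CPM. In Tet2 knockout it read 62.1 and 80.6 CPM with vehicle, and the VitD libraries held both the lowest and the highest value of the gene, 39.7 CPM in Tet2KO VitD 1 and 107 CPM in Tet2KO VitD 2. The log2 fold changes of -0.64 in WT (SE 0.441, adjusted p = 0.314) and 0.041 in Tet2 knockout (SE 0.437, adjusted p = 0.970) did not pass. The mean of the last pair, 73.3 ± 47.6 CPM (SD, n = 2), describes neither library.

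Pfkp (chromosome 13, 6579768 to 6648777, minus strand) encodes the platelet type of phosphofructokinase, the main control point of glycolysis. Its level was 232 and 264 CPM in WT vehicle libraries and 125 and 105 CPM in WT VitD libraries. The groups were far apart, with a log2 fold change of Pfkp of -1.11 (SE 0.252, adjusted p = 0.0220). In the libraries labelled Tet2 knockout it was at 223 and 225 CPM with vehicle. With VitD it was at 121 CPM in Tet2KO VitD 1, as low as in WT VitD, and at 200 CPM in Tet2KO VitD 2, nearer to vehicle. That difference was -0.48 on the log2 scale (SE 0.249, adjusted p = 0.428) and did not pass.

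Pgk1 (chromosome X, 106187100 to 106203699, plus strand) encodes phosphoglycerate kinase, the first enzyme of the pathway that makes ATP. It stood at 96.4 and 156 CPM in WT vehicle libraries and at 232 and 248.8 CPM in WT VitD libraries. The vehicle pair was spread more widely than the VitD pair, and Pgk1 rose by a log2 of 0.93 (SE 0.250, adjusted p = 0.0343). With the Tet2 knockout label it stood at 106 and 120 CPM under vehicle and at 181 and 144 CPM under VitD. These groups did not overlap either, but the log2 difference of 0.53 (SE 0.249, adjusted p = 0.398) did not pass.

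Pkm (chromosome 9, 59656368 to 59679375, plus strand) encodes the muscle pyruvate kinase, which makes pyruvate at the last step. Its WT values were 533 and 929 CPM with vehicle and 955 and 1023 CPM with VitD. The second vehicle library was thus close to the VitD libraries. In Tet2 knockout the values were 609 and 692 CPM with vehicle and 742 and 762 CPM with VitD. The log2 differences were 0.44 in WT (SE 0.274, adjusted p = 0.270) and 0.21 in Tet2 knockout (SE 0.274, adjusted p = 0.739). The table gives 1 value per gene, so the M1 and M2 splice forms of Pkm were not separated.

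Ldha (chromosome 7, 46841475 to 46855627, plus strand) encodes the lactate dehydrogenase subunit favoured in tissues that release lactate. It was at 236 and 407 CPM in WT vehicle libraries and at 481 and 608 CPM in WT VitD libraries, again with WT vehicle 2 nearest to the VitD values. In the libraries labelled Tet2 knockout it was at 283 and 366 CPM with vehicle and 358 and 471 CPM with VitD, which overlap. The log2 differences were 0.76 (SE 0.301, adjusted p = 0.100) and 0.35 (SE 0.2995, adjusted p = 0.601). With DESeq2 the WT difference of Ldha passed (log2 0.79, adjusted p = 0.0308), as it did without the filter on low counts (0.80, adjusted p = 0.0149). Pgk1, Ldha and the related Gapdh have processed pseudogenes in the mouse genome, and how reads that map to several places were counted is not given, so their levels are uncertain to that degree.

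Pdk1 (chromosome 2, 71873224 to 71903858, plus strand) encodes a kinase that switches off pyruvate dehydrogenase and so keeps pyruvate out of mitochondria. Pdk1 was at 30.6 and 41.7 CPM in WT with vehicle and at 22.2 and 23.9 CPM with VitD. In Tet2 knockout it was at 45.2 and 40.1 CPM with vehicle, at 22.8 CPM in Tet2KO VitD 1 and at 36.6 CPM in Tet2KO VitD 2. The pattern of levels was that of Pfkp, with 3 low libraries, yet the WT difference of -0.65 (SE 0.254, adjusted p = 0.0979) did not pass. The Tet2 knockout difference was -0.52 (SE 0.252, adjusted p = 0.406). With only the 4 WT libraries in the fit, the WT difference of Pdk1 passed (adjusted p = 0.0474).

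Hif1a (chromosome 12, 73901375 to 73947530, plus strand) encodes the oxygen-regulated subunit of HIF-1. In WT it was at 142 and 119 CPM with vehicle and at 195 and 238 CPM with VitD. Hif1a rose 1.66-fold (log2 0.73, SE 0.195, adjusted p = 0.0336). In the libraries labelled Tet2 knockout it was at 171 and 158 CPM with vehicle and 185 and 159 CPM with VitD. Those 4 values overlapped and lay between the 2 WT groups, with a log2 difference of 0.064 (SE 0.194, adjusted p = 0.896).

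Vegfa (chromosome 17, 46016993 to 46032369, minus strand) encodes the main growth factor for endothelial cells. It was at 119 and 153 CPM in WT vehicle libraries and at 71.0 and 62.3 CPM in WT VitD libraries. Vegfa was 2.04-fold lower (log2 -1.03, SE 0.260, adjusted p = 0.0290). In Tet2 knockout it was at 128 and 147 CPM with vehicle, at 63.4 CPM in Tet2KO VitD 1 and at 107 CPM in Tet2KO VitD 2. Both VitD libraries were below both vehicle libraries, but the difference of -0.69 (SE 0.258, adjusted p = 0.312) did not pass.

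Car9 (chromosome 4, 43506966 to 43513729, plus strand) encodes carbonic anhydrase IX, a surface enzyme that disposes of acid and a common marker of hypoxia. In WT it was at 10.9 and 11.2 CPM with vehicle (176 and 197 reads) and at 1.85 and 1.47 CPM with VitD (28 and 26 reads). The WT groups were the furthest apart of the 10 genes, with a log2 difference of -2.74 (SE 0.432, adjusted p = 0.00906). In the libraries labelled Tet2 knockout it was at 7.12 and 6.42 CPM with vehicle, at 1.93 CPM in Tet2KO VitD 1 and at 4.75 CPM in Tet2KO VitD 2. The order ran from WT vehicle over Tet2 knockout vehicle to the VitD libraries, and the Tet2 knockout difference of -1.002 (SE 0.402, adjusted p = 0.340) did not pass.

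In WT the 2 groups did not overlap for any of the 10 genes, 5 higher and 5 lower with VitD, where 33.8% of all genes were higher without overlap and 35.3% lower. With the Tet2 knockout label, 3 genes were higher without overlap (Slc2a1, Pgk1, Pkm) and 4 lower (Pfkp, Pdk1, Vegfa, Car9), where the shares of all genes were 23.7% and 22.2%. At an unadjusted p under 0.05, 7 genes passed in WT (38.0% of all genes) and 3 in Tet2 knockout, namely Slc2a1, Vegfa and Car9 (13.3% of all genes). DESeq2 called 6 in WT, where it called 3887 of 16058 genes, and 0 in Tet2 knockout, where it called 461 of 15515. The median log2 difference of the 10 genes was -0.21 in WT, beside -0.028 over all genes tested.

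Which genes were called in WT depended on single libraries, both of WT and of Tet2 knockout vehicle. Without WT vehicle 1 or without WT VitD 2, 0 of the 10 genes passed, when 226 of 17027 and 140 of 16904 genes passed in all. Without WT vehicle 2 the calls were Pgk1 and Car9 (594 of 16812 genes in all), and without WT VitD 1 the call was Car9 (1007 of 17051). Without Tet2KO vehicle 1 (1996 of 17017) or Tet2KO vehicle 2 (2019 of 16938) they were Pfkp and Car9. Directions in WT were unchanged under every omission of 1 library. Number range was also added as a covariate. Since it coincides with VitD in WT, its effect is estimated from Tet2KO VitD 1 against Tet2KO VitD 2 alone, 1 library each, and the adjusted WT values rest on that difference. In that fit 0 of the 10 genes passed, against 0.358% of all genes, and the WT differences were -1.44 for Car9 (adjusted p = 0.381), -0.38 for Pfkp, -0.27 for Vegfa, 0.59 for Pgk1 and 0.51 for Hif1a, and Hk2 (0.79) and Pdk1 (0.035) turned positive.

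**Figure D2:**
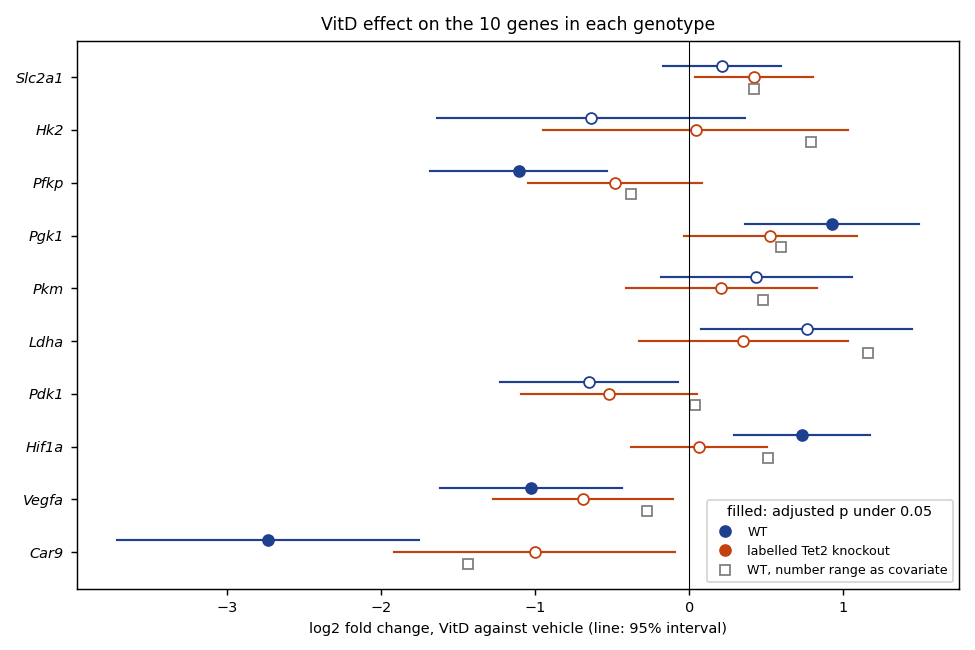
Log2 fold change of VitD against vehicle (x axis) for each gene, with 95% intervals, in WT (blue) and in the libraries labelled Tet2 knockout (red). Grey squares are WT with number range as covariate and are drawn without an interval. Filled points have an adjusted p under 0.05; these are Pfkp, Pgk1, Hif1a, Vegfa and Car9 in WT.

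Tet2KO VitD 2, the only VitD library of the low number range, differed from Tet2KO VitD 1 in most of these genes. Against the mean of their own vehicle libraries on a log2(CPM + 0.5) scale, Car9 was at -1.58 in Tet2KO VitD 1 and -0.47 in Tet2KO VitD 2. The corresponding values were -0.89 and -0.16 for Pfkp, -1.11 and -0.36 for Vegfa, -0.89 and -0.21 for Pdk1, and -0.83 and 0.59 for Hk2. In all 5 of these genes the 3 high-numbered libraries lay below all 5 low-numbered ones, which held for 21.5% of all genes. Pgk1 and Hif1a lay above in the same sense, as did 19.7% of all genes. The values of Slc2a1 (0.31 and 0.52), Pgk1 (0.68 and 0.35), Pkm (0.19 and 0.23) and Ldha (0.15 and 0.55) were positive in both VitD libraries labelled Tet2 knockout. Tet2KO VitD 2 had the sign of the 3 other VitD libraries in all of the 10 genes except Hk2 and Hif1a (0.17 and -0.047), though nearer to 0 than Tet2KO VitD 1 for Pgk1, Pfkp, Pdk1, Vegfa and Car9. Without Tet2KO VitD 2, leaving 1 library that is assumed to vary like the other groups, 4 genes were lower in Tet2 knockout: Pfkp (-0.89, adjusted p = 0.0309), Pdk1 (-0.90, adjusted p = 0.0460), Vegfa (-1.11, adjusted p = 0.0213) and Car9 (-1.81, adjusted p = 0.0193). Over all genes 11.2% then passed.

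**Figure D3:**
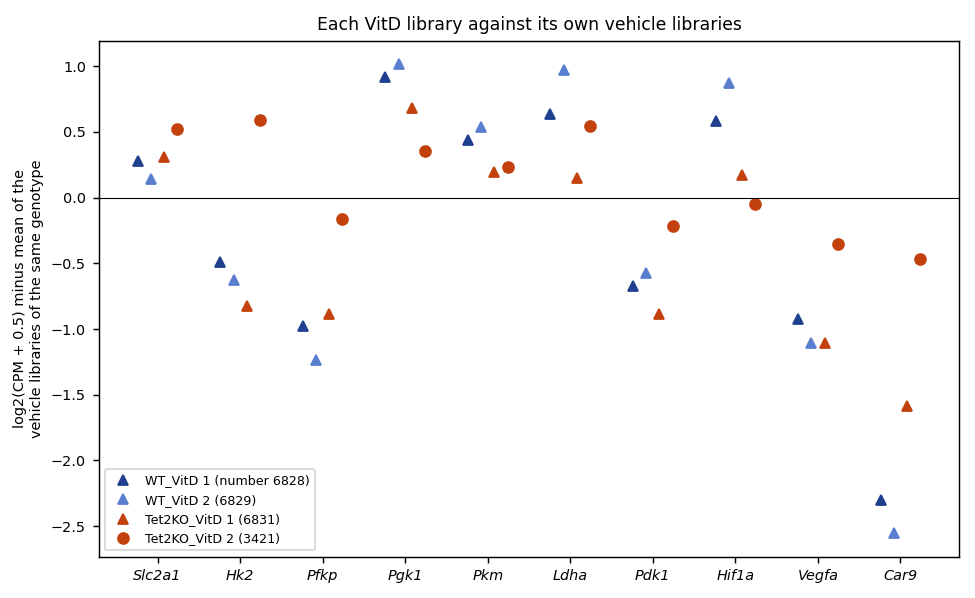
Each of the 4 VitD libraries against the mean of the 2 vehicle libraries of its genotype (y axis, difference in log2(CPM + 0.5)) for the 10 genes. Triangles are libraries of the higher number range and the circle is Tet2KO VitD 2. For Car9 the triangles lie at -1.58 or below and the circle at -0.47, while Slc2a1, Pgk1, Pkm and Ldha are above 0 in all 4 libraries.

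The label of the mice made no difference that passed the test. With vehicle, 0 of the 10 genes passed between Tet2 knockout and WT (0% of all genes), and 0 had an unadjusted p under 0.05, by edgeR. DESeq2 called 0 of the 10 and 18 of 17143 genes. Car9 had the widest gap, 6.77 ± 0.493 CPM against 11.1 ± 0.200 CPM (SD, n = 2), with a log2 difference of -0.71 and a 95% interval of -1.60 to 0.18. Hif1a was higher without overlap (0.33, interval -0.11 to 0.77). For Vegfa (0.015, interval -0.57 to 0.60) and Ldha (0.015, interval -0.66 to 0.69) the groups overlapped, and the intervals are too wide to show likeness.

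With VitD, 0 of the 10 genes passed between Tet2 knockout and WT (0% of all genes). At an unadjusted p under 0.05 there were 2, Pgk1 (-0.56, adjusted p = 0.470) and Car9 (1.02, adjusted p = 0.467), and DESeq2 called 0 of the 10 and 96 of 15515 genes. The test of whether the VitD effect differed by genotype also called 0 (0% of all genes), and DESeq2 called 0 of the 10 and 18 of 18772 genes. Its unadjusted p was under 0.05 for Hif1a (-0.67, SE 0.275, adjusted p = 0.794) and Car9 (1.73, SE 0.581, adjusted p = 0.794). So 5 calls in WT beside 0 in Tet2 knockout do not show that the 2 effects differ.

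Levels can be set side by side only per length of transcript. Per kilobase, the mean over the 8 libraries was 321 CPM for Pkm and 221 CPM for Ldha, the most abundant of the 10. Pgk1 followed at 88.0, Pfkp at 45.1, Hif1a at 36.2 and Vegfa at 30.8 CPM per kilobase. Slc2a1 (13.3), Hk2 (11.5), Pdk1 (6.34) and Car9 (2.82 CPM per kilobase) were the least abundant. Neighbours in this order were not always separate: Slc2a1 ranged from 11.01 to 16.7 and Hk2 from 7.20 to 19.4 CPM per kilobase, and Hif1a from 25.2 to 50.4 and Vegfa from 18.1 to 44.3.

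Within gene families, the make-up of the transcript pool per kilobase differed between libraries; these shares were not tested. Hk2 held 36.8% and 45.1% of the summed CPM per kilobase of Hk1, Hk2 and Hk3 in WT vehicle libraries. It held 25.1% and 22.3% in WT VitD libraries, where Hk1, the constitutive form, held 69.1% and 72.0%. In Tet2KO VitD 1 Hk2 held 21.0%, and in Tet2KO VitD 2 47.6%. Among glucose transporters, Slc2a1 held 31.5% and 22.8% in WT with vehicle and 49.9% and 51.3% with VitD. The counterpart was Slc2a4, the insulin-regulated GLUT4 of muscle and fat, at 65.98% and 74.1% with vehicle and 45.2% and 43.3% with VitD. Tet2KO VitD 1 had 52.8% Slc2a1, and Tet2KO VitD 2 had 27.7%, close to the vehicle libraries.

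Pfkp held 54.8% and 45.7% of phosphofructokinase CPM per kilobase in WT vehicle libraries and 42.8% and 42.2% in WT VitD libraries. The summed level of Pfkl, Pfkm and Pfkp was 102 and 139 CPM per kilobase with vehicle and 70.7 and 59.8 with VitD. Ldha held 56.6% and 68.7% of lactate dehydrogenase CPM per kilobase with vehicle and 72.3% and 85.7% with VitD. Pdk1 was a minor pyruvate dehydrogenase kinase throughout, at 5.08% to 7.17% of Pdk1 to Pdk4, with Pdk4 at 46.9% to 61.8%. Epas1, which encodes HIF-2 alpha, exceeded Hif1a in every library, with 58.1% to 72.7% of the HIF alpha CPM per kilobase against 27.0% to 41.2%.

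Vegfa held 36.6% and 38.4% of VEGF ligand CPM per kilobase in WT vehicle libraries and 21.6% and 19.2% in WT VitD libraries. Placental growth factor (Pgf) went from 3.14% and 2.13% to 14.9% and 19.3%. The sum of the 5 ligands was 94.1 and 115 CPM per kilobase with vehicle and 95.4 and 94.3 with VitD. The summed level with VitD thus lay at the lower end of the vehicle values, while the share of Vegfa was lower and that of Pgf higher.

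**Figure D4:**
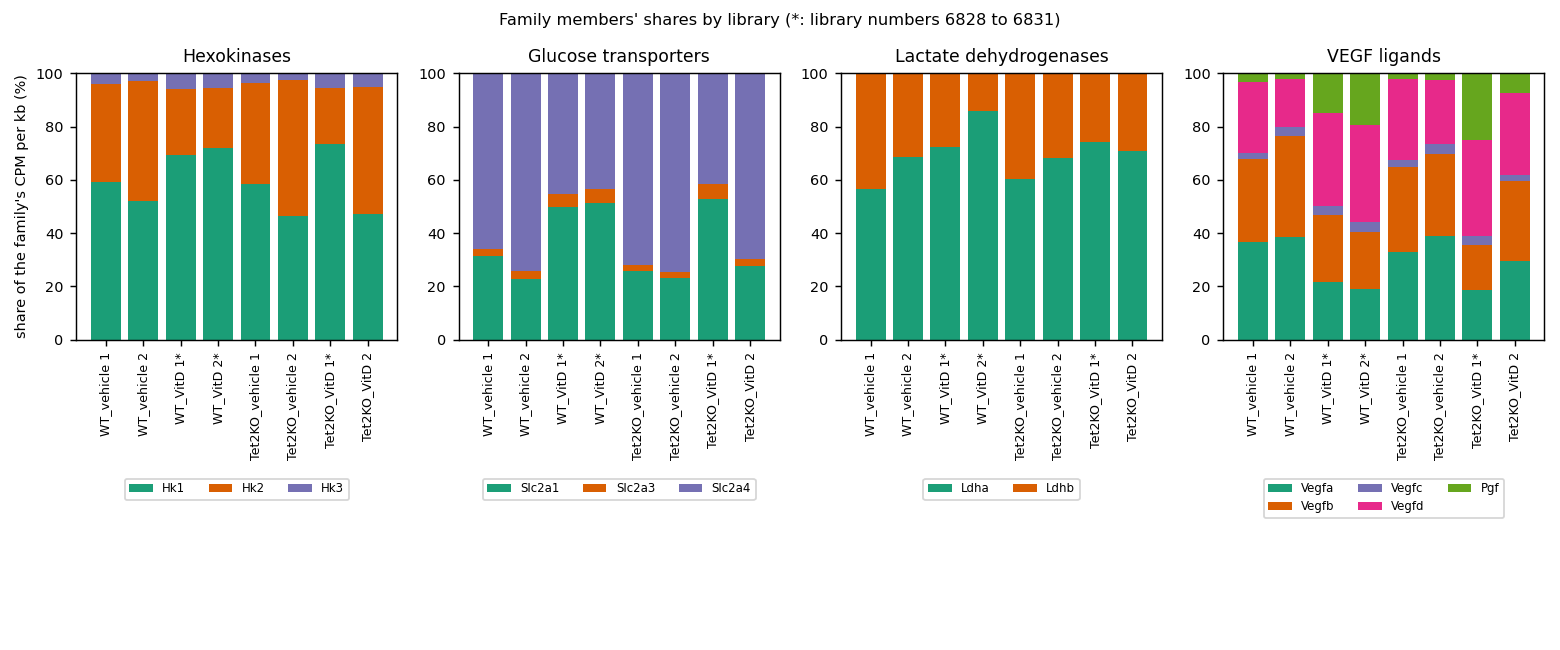
Share (%) of each family's summed CPM per kilobase held by its members in the 8 libraries, for hexokinases, glucose transporters, lactate dehydrogenases and VEGF ligands. Asterisks mark libraries of the higher number range; in these the Slc2a1 share is 49.9% to 52.8%, against 22.8% to 31.5% in the others.

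Of 99 other genes of these pathways, in 9 lists, 92 were tested, and under VitD in WT 8 rose and 6 fell, or 15.2% beside 20.1% of all genes. In the other 4 comparisons 0 of the 92 passed. None of the 14 passed when number range was a covariate. Glucose transport and phosphorylation had 0 of 5 called; the smallest p were those of Hk3, the hexokinase of myeloid cells (log2 0.98, adjusted p = 0.0545), and Slc2a4 (-1.41, adjusted p = 0.0781). Of 16 glycolytic enzymes 1 passed, Pfkm, the muscle phosphofructokinase, which fell from 78.4 and 104 CPM to 47.4 and 40.5 CPM (-1.05, adjusted p = 0.0323). Gapdh was at 738 and 1002 CPM with vehicle and 1115 and 1255 CPM with VitD (0.45, adjusted p = 0.201).

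Of 5 lactate genes, Slc16a3, the lactate exporter MCT4, rose from 12.9 and 19.3 CPM to 32.6 and 36.3 CPM (1.10, adjusted p = 0.0191). Of 11 genes of pyruvate entry into mitochondria, Pdp2, a phosphatase that reactivates pyruvate dehydrogenase, fell from 51.9 and 41.9 CPM to 22.9 and 12.1 CPM (-1.43, adjusted p = 0.0363). Of 7 pentose phosphate genes, Pgls, the lactonase of the oxidative arm, rose (0.83, adjusted p = 0.0162). Adjusted p was 0.0551 for Pdp2 and 0.0501 for Pgls once the trend with transcript length was removed. Of 10 genes of the HIF system itself 0 passed, beside 20.1% of all genes. The smallest p were those of the prolyl hydroxylases Egln2 (0.43, adjusted p = 0.163) and Egln1 (-0.28, adjusted p = 0.260).

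Among 18 other HIF targets tested, 2 rose and 2 fell. Ddit4, an inhibitor of mTORC1, rose from 16.5 and 23.0 CPM to 70.2 and 63.0 CPM (1.75, adjusted p = 0.0145), and Adm, the vasodilator adrenomedullin, rose by 0.90 (adjusted p = 0.0411). Kdm4b, a histone demethylase, fell by 0.77 (adjusted p = 0.0222), and P4ha2, a collagen prolyl hydroxylase, fell by 0.78 (adjusted p = 0.0476). Adjusted p was 0.0796 for Adm without the transcript length trend, and 0.0524 for P4ha2 with DESeq2 size factors. The 4 calls of 18 are close to the share over all genes, 20.1%, with 10.6% higher and 9.47% lower.

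Among 9 VEGF ligands and receptors 2 rose and 0 fell, where 10.6% of all genes rose and 9.47% fell. Pgf rose from 6.15 and 5.13 CPM to 29.6 and 37.8 CPM (2.58, adjusted p = 0.0131). It stood at 4.91 and 5.42 CPM in Tet2 knockout with vehicle and at 51.5 and 16.1 CPM with VitD, without overlap (2.705, adjusted p = 0.0764). Flt1, the receptor that Pgf and Vegfa share, rose from 36.2 and 40.0 CPM to 66.9 and 79.8 CPM (0.94, adjusted p = 0.0333). Vegfb, a ligand of the same receptor, was at -0.74 (adjusted p = 0.115).

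Of 11 other carbonic anhydrases tested, 2 rose and 2 fell, beside 10.6% higher and 9.47% lower over all genes. Car13, a cytosolic form, rose by 1.19 (adjusted p = 0.0279). Car11, a member without catalytic activity, fell from 35.7 and 35.7 CPM to 12.2 and 8.32 CPM (-1.80, adjusted p = 0.0327), and Car7 fell by 1.97 from a low level of 1.18 and 1.71 CPM (adjusted p = 0.0382). Car12, the other tumour-associated surface form, rose on very few reads, 0 and 1 with vehicle against 7 and 14 with VitD (adjusted p = 0.0278). The ratio of its summed reads per library size was 21.6, with an exact 95% interval of 3.47 to 892 for counting error only. With DESeq2, Car7 (adjusted p = 0.0648) and Car12 (adjusted p = 0.0545) did not pass.

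**Figure D5:**
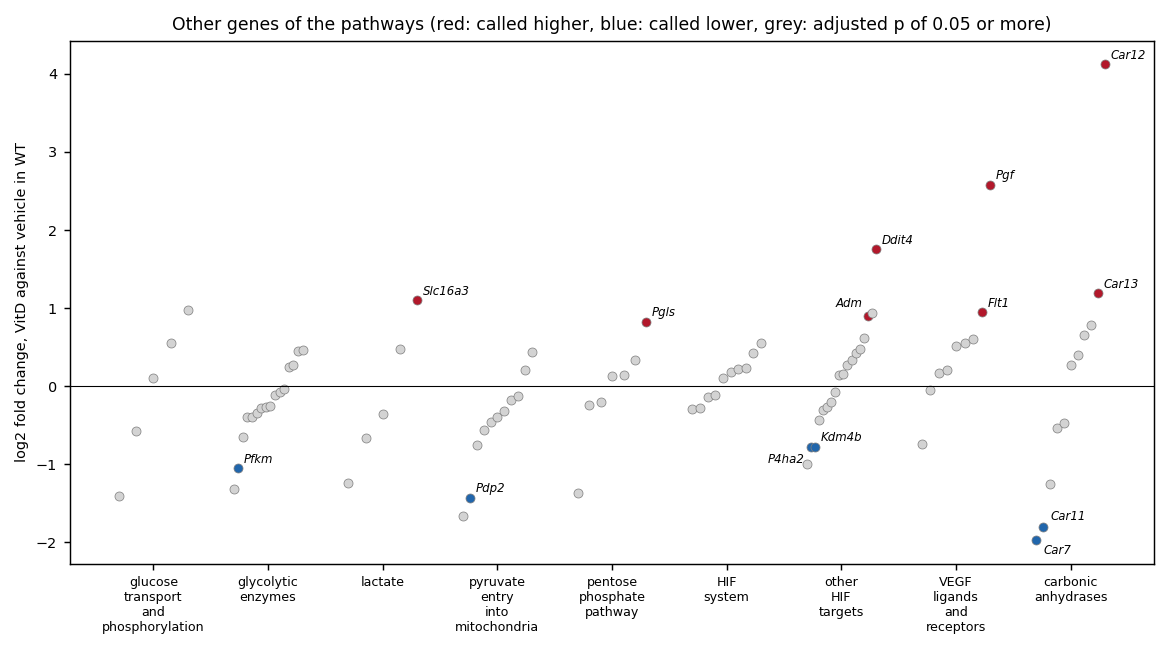
Log2 fold change of VitD against vehicle in WT (y axis) for the 92 other pathway genes tested, sorted within each of the 9 lists. Red and blue points passed the test (8 higher, 6 lower), grey points did not; the point of Car12 rests on 1 read in the vehicle libraries.

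Markers of other cell types moved with VitD in the same libraries. All 9 macrophage markers rose in WT, with a summed level of 539 and 565 CPM with vehicle and 2438 and 2929 CPM with VitD; in the libraries labelled Tet2 knockout the sum was 719 and 863 CPM with vehicle, 2507 CPM in Tet2KO VitD 1 and 1413 CPM in Tet2KO VitD 2. All 6 neutrophil and all 6 proliferation markers rose in WT, beside 10.6% of all genes. So did 7 of the 8 fast skeletal muscle markers tested (9 listed) and 3 of 5 mesothelial markers. The skeletal muscle sum was 31.9 and 35.0 CPM with vehicle and 106 and 452 CPM with VitD in WT, and 14.7 to 23.5 CPM in the 4 libraries labelled Tet2 knockout. All 5 mesothelial markers were higher without overlap in WT, beside 33.8% of all genes, with sums of 32.6 and 30.2 CPM against 85.1 and 184.9 CPM. Of 6 endothelial markers 1 rose (10.6% of all genes) and all 6 were higher without overlap (33.8% of all genes), with a median log2 of 1.02. Their sum was 1422 and 1289 CPM with vehicle and 2687 and 2277 CPM with VitD in WT, and 4315 CPM in Tet2KO VitD 1 and 1251 CPM in Tet2KO VitD 2. Of 8 contractile smooth muscle markers 2 fell, beside 9.47% of all genes, and 6 were lower without overlap, beside 35.3%. Their sums were 28927 and 30000 CPM with vehicle in WT against 22484 and 15169 CPM with VitD. The brown adipocyte sum was 548 and 688 CPM in Tet2 knockout with vehicle, 222 CPM in Tet2KO VitD 1 and 931 CPM in Tet2KO VitD 2, and the white adipocyte sum in these libraries was 2394, 2523, 1540 and 2962 CPM. In WT the adipocyte sums overlapped between groups for white fat and were 479 and 857 against 1028 and 934 CPM for brown fat. Of 6 brown adipocyte markers 1 rose in WT, Dio2 (log2 2.03, adjusted p = 0.0107). Of 5 fibroblast markers 1 rose in WT, Lum (log2 1.58, adjusted p = 0.0106), and 3 were higher without overlap. All 5 red cell markers were lower without overlap with VitD in Tet2 knockout (22.2% of all genes), at a median log2 of -1.85, and 0 passed. In WT 0 of these 5 were separate. No marker of the lists above was at 0 in any library. Of 6 thymocyte markers 4 were tested, and 2 fell in WT. The sum of the 6 was 71.8 CPM in WT vehicle 1 and 1.196 CPM in WT vehicle 2 against 1.39 and 0.849 CPM with VitD. In each library but WT vehicle 1 and the vehicle libraries labelled Tet2 knockout, 2 or 3 of the 6 were at 0. The part of these cell types in the results was not tested.

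The genes whose log2 CPM was most like that of the 5 genes over the 8 libraries were sought among the 13081 genes averaging 1 CPM or more. For Pfkp they were Gpr17 (Pearson r = 0.998), Prpf40b (0.996) and Pld2 (0.996). For Car9 they were Dalrd3 (0.997), Ulk3 (0.993) and Gtpbp2 (0.993), and for Vegfa Ybx2 (0.993), Sntb1 (0.991) and Hmcn2 (0.991). For Pgk1 they were Mrpl43 (0.993), Dtnbp1 (0.993) and Memo1 (0.992), and for Hif1a Aim1 (0.982), Dtl (0.979) and Bcap29 (0.979). Among the 10 genes themselves Pfkp and Vegfa (0.979) and Pfkp and Car9 (0.976) were most alike. These are descriptions over 8 libraries that fall into separate sets by VitD and number range, with too few libraries in a set to look within it.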

How the data were processed

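Poly-A enriched stranded libraries were made from total RNA of the whole aortic tree, per the labels' protocols. The authors deposited raw read counts, 1 per gene symbol and library. The submitters' processing notes name Trimmomatic 0.39, STAR 2.7.8a, featureCounts 2.0.2 and mm10. The sources used here do not give the annotation, the strand setting or how multi-mapping reads were handled. Whether reads of overlapping antisense genes were kept apart is therefore not known.

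The counts went into edgeR 4.0.16 (R 4.3.3) with TMM and filterByExpr, which left 16194 genes. The quasi-likelihood fit covered all 8 libraries with a mean for each group and 4 residual degrees of freedom. P-values were adjusted by Benjamini-Hochberg within each of 5 contrasts at a threshold of 0.05, and SE came from the fold change and F. CPM per kilobase used the longest protein-coding transcript of GENCODE M21 (mm10), which also gave the gene positions; promoter windows came from RefSeq. Alternatives were DESeq2 1.42.0, its size factors in edgeR, upper quartile scaling, other filters (none, or 1 CPM in 2 libraries), a replicate block, number range as covariate, fitting 2 groups only, removal of the transcript length trend, and omission of each library.

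The 10 genes and the lists were chosen with earlier results of these data known. All 10 are named; of each other list up to 4 called genes per direction, or else up to 2 of smallest p. The 3 most alike genes are given for each of the 5 genes called in WT. Simulated counts of 16194 genes served as a test, with each gene's mean over all 8 libraries as its level in every group. The spread followed the fitted trend with level, and changes in either direction were planted in WT VitD only. At a log2 change of 1, 24% of 100 genes were recovered, at a log2 change of 2, 79% of 100, and 2 unchanged genes were called. In the data 20.1% of genes passed in WT, far more than were changed in the simulation, so these shares do not carry over.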

Additional observations from a re-analysis of the deposited data

How the results depend on the processing

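With number range as covariate, the number of the 10 genes called under VitD in WT was 0, against 5, and the log2 differences of Hk2 (0.79) and Pdk1 (0.035) in WT and of Hif1a (-0.048) in Tet2 knockout changed sign. The other settings that kept all libraries called 4 to 6 in WT. Between Tet2 knockout and WT under VitD, the fit without a filter called 1 gene, Hk2, against 0. Leaving out 1 library gave 0 to 6 calls in WT, 0 to 4 in Tet2 knockout (4 without Tet2KO VitD 2) and 0 to 1 between genotypes under VitD (Car9, without Tet2KO VitD 1). In Tet2 knockout it moved Hk2 between -0.85 and 0.59 and Hif1a between -0.039 and 0.17. With the replicate block 4 genes were called in WT (Hif1a had an adjusted p of 0.0522), 2474 of all genes passed against 3251, and Hk2 in Tet2 knockout was at -0.071. Same-numbered libraries deviated together by correlations of only -0.161 to 0.157, so the numbers were not taken to pair them. Over all values of single genes, 303 of 338 kept their direction and their side of the threshold under the settings with all libraries (28 lost and 3 gained a call, 4 changed sign), and 208 of 304 did so when a library was left out (86 lost, 7 gained, 3 changed sign). These totals include values that had not passed in the main fit and so could not lose a call. They therefore do not give the share of calls that was kept. The causes were not tested. In simulated data with 2 libraries per group, a log2 change of 1 was mostly not recovered. Far fewer genes were changed there than were called in WT, so that share does not carry over to these data.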
